A study of Mus musculus with 39 samples.

Results

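The 39 genes described here encode the enzymes and carriers of fatty acid oxidation, and they were followed on 39 Agilent 1-colour arrays of RNA labelled as infiltrating macrophages of brown fat in mice, taken from its stromal vascular fraction. A gene was included where a probe of the array carries its symbol in the deposited table of the series, so 39 of 29411 gene symbols on the array were taken, and all 39 had a probe that passed the filter on dim signal. By their role, 8 genes belong to activation and uptake, 6 to the carnitine shuttle, 11 to the mitochondrial spiral, 3 to electron transfer and 8 to the peroxisome, and the last 3 are the thioesterases Acot1 and Acot2 and the kinase Pdk4.

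C57BL/6J mice, weaned at 3 to 4 weeks of age, received a low fat diet with 10% of calories from fat (LFC), a high fat diet rich in sucrose with 60% of calories from fat (HFC), or the same high fat diet with the botanical formulation KAL-1 at 5 µg (HF5), 20 µg (HF20) or 75 µg (HF75). All animals were of the same strain and carried no altered allele that the labels name, with 30 animals in each diet group, and the sources used here do not say whether an array held RNA of 1 mouse or of several. Each array held 1 diet at 1 time label. There were 10 arrays of LFC, at Week 0, 3, 9, 12, 15 and 18 and, earlier, at Day 1, 6, 10 and 14. HFC was measured on 11 arrays, with Week 6 beside those labels, and every KAL-1 dose on 6 arrays from Week 3 onwards. Since a diet never occurred more than once under a label, no test rests on repeats of a diet at a label. Behind the diet comparisons stands the spread of the diet differences between time labels. Behind the trend over time stands the scatter of the arrays around a line. Both hold biological and technical variation together.

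Some arrays stood apart before any diet was compared. Over the 39 arrays the 75th percentile of the intensity lay between 18.1 and 3974, and the arrays were scanned on 18 dates. On HF20 Week 15, 71.4% of spots were marked as outliers by the scanner software, against 18.6% on HF5 Week 12, 11.1% on HFC Week 12 and at most 2.19% on any other. For HF20 Week 12 the title and the source name give HF20, but a further label names only the high fat diet. The titles of 9 arrays (HFC Day 1, LFC Day 6, HFC and HF5 Week 9, LFC and HF20 Week 12, HF5 and HF75 Week 15 and LFC Week 18) hold the letters BA or BAT where the other titles hold B alone or B and A set apart, and the sources used here do not explain these letters. They are called titled arrays in what follows. The title of LFC Day 6 also begins with a prefix unlike that of all other titles, which is not explained either.

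Fatty acids are first joined to coenzyme A, then carried as acylcarnitines across the inner mitochondrial membrane, and then shortened step by step in the matrix, where each turn of the spiral passes electrons to the respiratory chain and releases acetyl-CoA. Peroxisomes shorten very long and branched chains before the products move on to mitochondria. In brown fat this oxidation feeds heat production through the uncoupling protein Ucp1, and in macrophages it is known for its part in alternative activation. Many genes of the pathway are known targets of PPAR receptors, which bind a direct repeat of the letters AGGTCA spaced by a single base.

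With this known regulation in mind, the 250 bases before each start site were read from RefSeq (build GRCm38.p6). Windows were found for 35 of the 39 genes, and Cpt1b, Crat, Acaa2 and Decr1 were not matched. The motif AGGTCA, searched on both strands, lay in the windows of 7 of 35 members (20.0%: Acadm, Acadvl, Acsl6, Cpt1a, Cpt1c, Echs1 and Slc27a2), against 15.8% of 27025 genes. The direct repeat of AGGTCA with a single base between lay in 0 members and in 0.0407% of genes, and the longer TCAAGGTCA, which contains AGGTCA, lay in Acsl6 alone and in 0.422% of genes. Of these windows 3 are shown, with AGGTCA or its reverse complement in capitals, for the gate of the carnitine shuttle (Cpt1a, chr19:3323051-3323300, plus strand) and for an early and a middle step of the spiral (Acadvl, chr11:70015429-70015678, and Echs1, chr7:140116422-140116671, both minus strand). The motif began 94 bases before the start site of Cpt1a, on the opposite strand, and 87 and 83 bases before those of Acadvl and Echs1. A match is a description of letters and not a binding site.
Cpt1a: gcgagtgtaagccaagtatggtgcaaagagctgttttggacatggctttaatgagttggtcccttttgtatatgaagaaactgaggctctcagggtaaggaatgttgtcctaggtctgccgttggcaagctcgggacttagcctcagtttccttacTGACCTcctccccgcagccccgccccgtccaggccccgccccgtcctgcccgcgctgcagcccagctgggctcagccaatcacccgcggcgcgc
Acadvl: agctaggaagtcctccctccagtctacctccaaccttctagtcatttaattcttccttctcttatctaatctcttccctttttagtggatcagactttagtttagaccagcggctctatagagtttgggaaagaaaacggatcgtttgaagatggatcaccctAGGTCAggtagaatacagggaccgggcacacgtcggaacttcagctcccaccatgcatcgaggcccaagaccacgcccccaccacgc
Echs1: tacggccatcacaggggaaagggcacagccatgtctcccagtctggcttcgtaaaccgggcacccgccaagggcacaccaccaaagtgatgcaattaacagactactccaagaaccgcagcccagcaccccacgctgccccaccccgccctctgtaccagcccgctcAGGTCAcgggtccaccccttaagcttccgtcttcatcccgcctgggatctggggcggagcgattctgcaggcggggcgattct
Hadha and Hadhb, the 2 subunits of the mitochondrial trifunctional protein, start 273 bases apart on opposite strands, so that their windows (chr5:30154981-30155230, minus strand, and chr5:30155003-30155252, plus strand) share 228 bases. The window of Hadha is given with the shared bases in capitals, because the levels of this pair are set beside each other in the account of the spiral.
Hadha: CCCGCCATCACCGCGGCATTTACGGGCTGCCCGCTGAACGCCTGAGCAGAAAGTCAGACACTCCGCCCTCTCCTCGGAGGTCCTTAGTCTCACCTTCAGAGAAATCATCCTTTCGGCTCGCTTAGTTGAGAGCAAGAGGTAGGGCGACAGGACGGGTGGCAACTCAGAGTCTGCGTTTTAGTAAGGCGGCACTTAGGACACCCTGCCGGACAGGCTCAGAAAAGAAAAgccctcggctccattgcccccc

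Levels are given as log2 of the background-subtracted signal minus the 75th percentile of the same array, so that 0 stands for a probe as bright as that percentile, and a step of 1 stands for a 2-fold difference. The levels varied widely between arrays of every diet. The standard deviation over the arrays had a median of 1.34 for the 39 members, against 1.15 for all 24717 genes kept, with 1.15 for activation and uptake, 1.51 for the mitochondrial spiral and 1.03 for the peroxisomal genes. For all 39 members the ranges of the 5 diets overlapped in every pair of diets. The share of all genes that overlap so was not counted. With levels that vary this widely, overlap says little about a member, and it leaves out the pairing by time label. In bulk RNA such as this, fewer cells of a type and less RNA per cell cannot be told apart.

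Signal was not the same limit for every member. On all 39 arrays 27 members were well above background, against 9854 of all 40628 probes. Each member was read from its brightest probe, so the counts are not alike. Acsl6, an acyl-CoA synthetase of brain and testis, was well above background on 11 arrays and Cpt1c, the brain form of carnitine palmitoyltransferase, on 21. At the bright end 13 members had saturated spots (85 spots, 75 of them on titled arrays), all on 8 arrays, so the highest levels of genes such as Acadm and Hadhb are lower limits there. On HF20 Week 15 no value was left for 17 members, and 17 members had their lowest level there.

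**Figure D1:**
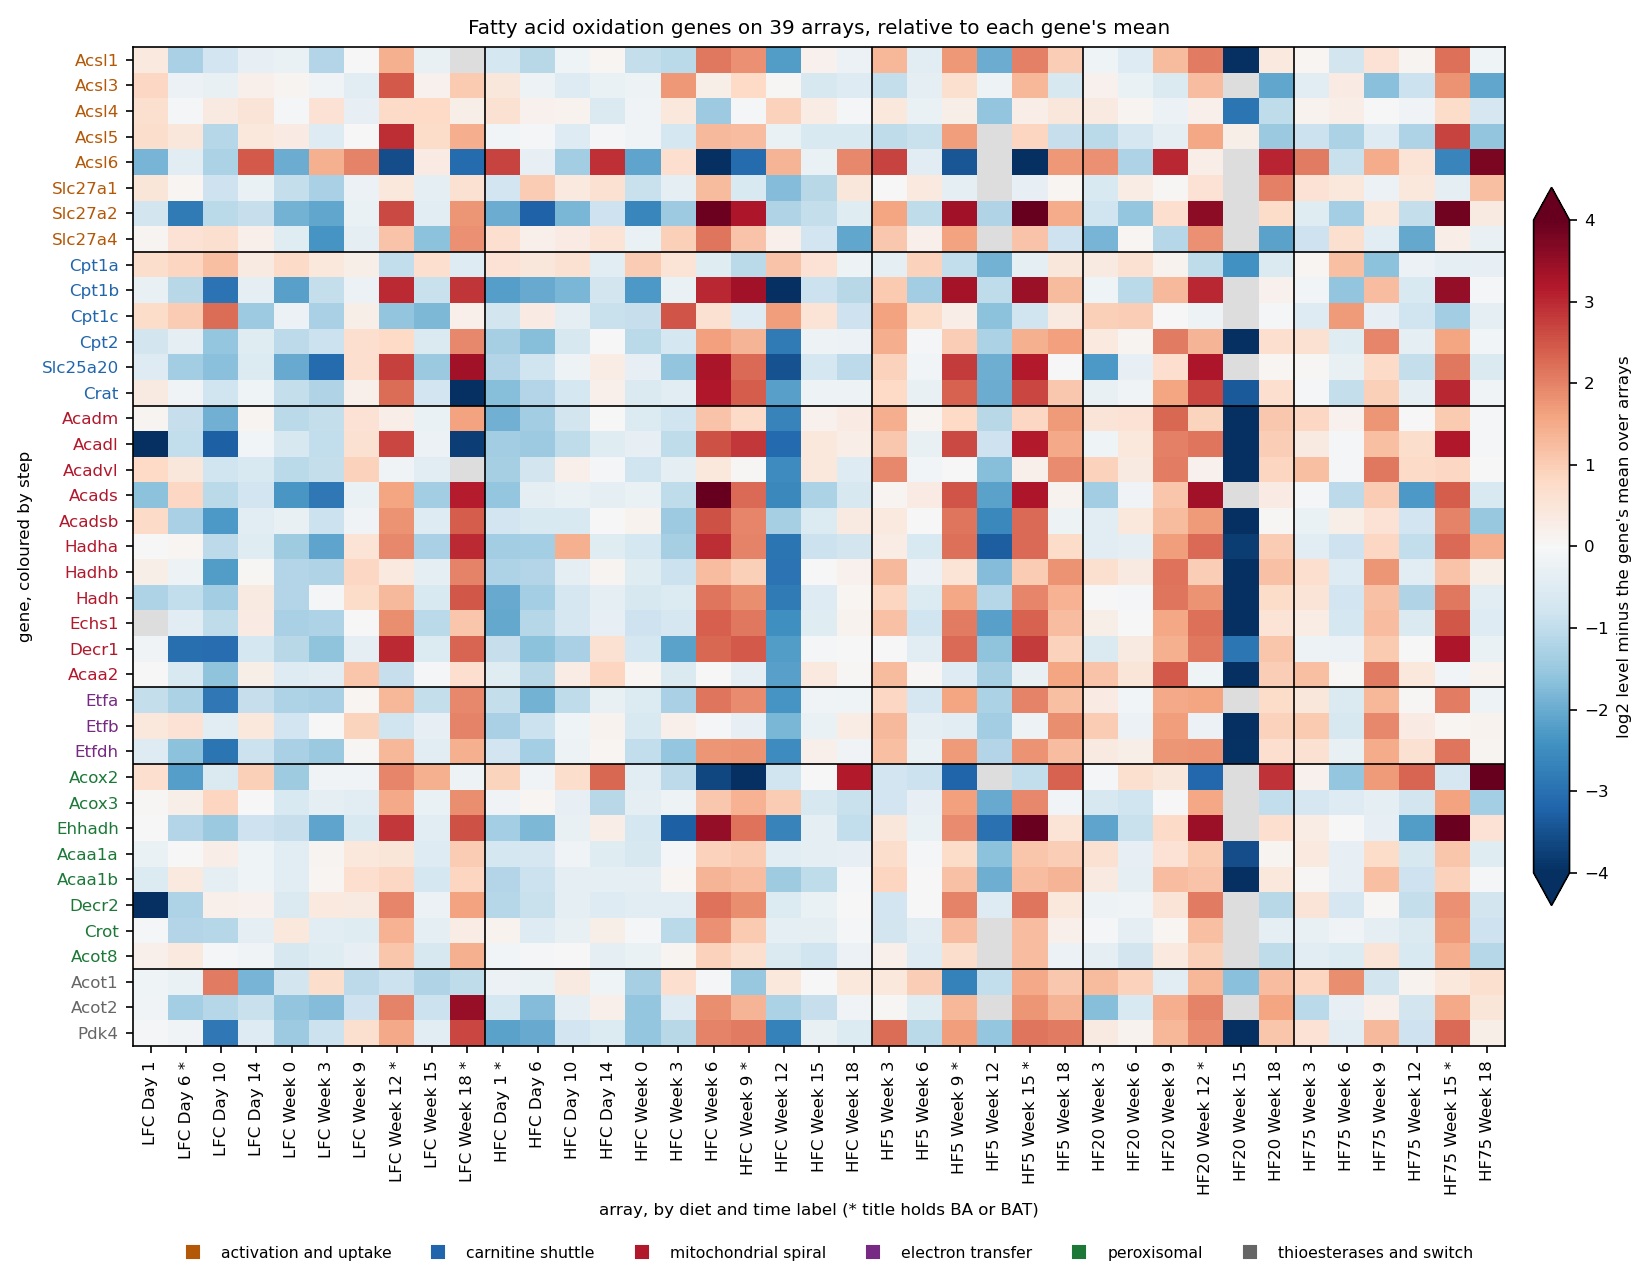
Each cell gives the log2 level of 1 gene (rows, grouped and coloured by step) on 1 array (columns, grouped by diet and in order of time, titled arrays with an asterisk) minus the mean of that gene over the arrays, and grey cells have no value. Most genes of the shuttle, the spiral and electron transfer are red on the same arrays (HFC Week 6 and most titled arrays from Week 9 on) and blue on HF20 Week 15 and HFC Week 12.

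Activation and uptake comprise the acyl-CoA synthetases Acsl1, Acsl3, Acsl4, Acsl5 and Acsl6, which attach coenzyme A, and the transport proteins Slc27a1, Slc27a2 and Slc27a4, which take up fatty acids and activate very long chains. Acsl1, the main synthetase of fat cells, ranged from 3.05 to 5.75 (median 4.03) on the LFC arrays and from 2.10 to 6.45 (median 4.11) on the HFC arrays. Its range was 2.34 to 6.35 (median 5.50) in HF5, 0.15 to 6.42 (median 4.44) in HF20 and 3.59 to 6.52 (median 4.44) in HF75. In each diet the highest array was HFC Week 6 or a titled array, and the 5 diets overlapped. The other members of the step differed in how much they varied. Acsl4, which prefers arachidonic acid, was the steadiest with a standard deviation of 0.74, while Slc27a2, a transport protein best known from liver and kidney, ran from -2.92 on HFC Day 6 to 4.89 on HF5 Week 15. Acsl6 ran from -8.92 on HF5 Week 15 to -0.99 on HF75 Week 18, and its lowest values lie below reliable signal. Acsl3, Acsl5, Slc27a1 and Slc27a4 spanned 4.52, 4.53, 3.75 and 4.48 log2 units, with the highest level of Acsl3 and of Acsl5 on LFC Week 12.

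The carnitine shuttle starts with carnitine palmitoyltransferase 1, the step that controls entry into mitochondria, of which Cpt1a is the liver form and Cpt1b the muscle form that also prevails in brown fat cells. Cpt1a ranged from -0.13 to 2.06 (median 1.41) in LFC and from -0.20 to 1.99 (median 1.40) in HFC. With KAL-1 its range was -1.02 to 1.79 (median 0.47) in HF5, -1.56 to 1.48 (median 0.64) in HF20 and -0.78 to 2.07 (median 0.58) in HF75. The lowest Cpt1a levels of LFC and HFC were on titled arrays, those of HF5 and HF20 on the arrays with the most marked spots, and the diets overlapped.

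Cpt1b ranged from -0.82 to 5.12 (median 1.5) in LFC and from -2.0 to 5.50 (median 1.03) in HFC. In HF5 it ran from 0.74 to 5.6 (median 3.29), in HF20 from 1.06 to 5.14 (median 2.31, 5 arrays) and in HF75 from 0.57 to 5.64 (median 2.04). Its values fell into separate sets within each diet, with HFC Week 6 and 7 of the 9 titled arrays high and all others clearly lower, and HFC Day 1 and LFC Day 6 were the titled arrays among the lower ones. Because of these sets the relation of the isoforms is given apart for titled and other arrays, by permutation tests. Over the 29 other arrays Cpt1a and Cpt1b ran opposite (Pearson r = -0.56, p = 0.00176, Spearman rho = -0.69, p = 7e-05, 100000 permutations, two-sided). Over the 9 titled arrays r was -0.88 (permutation p = 0.0255) and rho was -0.33 (permutation p = 0.387), so that relation rests on how far single arrays lie from the rest.

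Cpt2, which turns acylcarnitines back into acyl-CoA inside the mitochondrion, ranged from 3.21 to 6.68 (median 4.23) in LFC and from 1.94 to 6.42 (median 4.14) in HFC. In HF5 it ran from 3.51 to 6.42 (median 5.98), in HF20 from 0.74 to 6.84 (median 5.30) and in HF75 from 4.29 to 6.72 (median 5.02). All diets overlapped, and the low ends of HFC, HF5 and HF20 were Week 12, Week 12 and Week 15. Slc25a20, the carrier that exchanges acylcarnitine for carnitine, ran from -2.14 to 4.28 (median -0.03) in LFC and from -2.56 to 4.20 (median 0.22) in HFC. Its levels were -1.02 to 4.11 (median 1.40) in HF5, -1.38 to 4.17 (median 0.99, 5 arrays) in HF20 and -0.02 to 3.04 (median 0.81) in HF75. Here too each diet held high and low arrays. Crat, which transfers acetyl groups to carnitine, had the widest range of the step, from -2.63 on LFC Week 18 to 6.15 on HFC Week 6, and Cpt1c ran from -5.31 to -1.02.

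**Figure D2:**
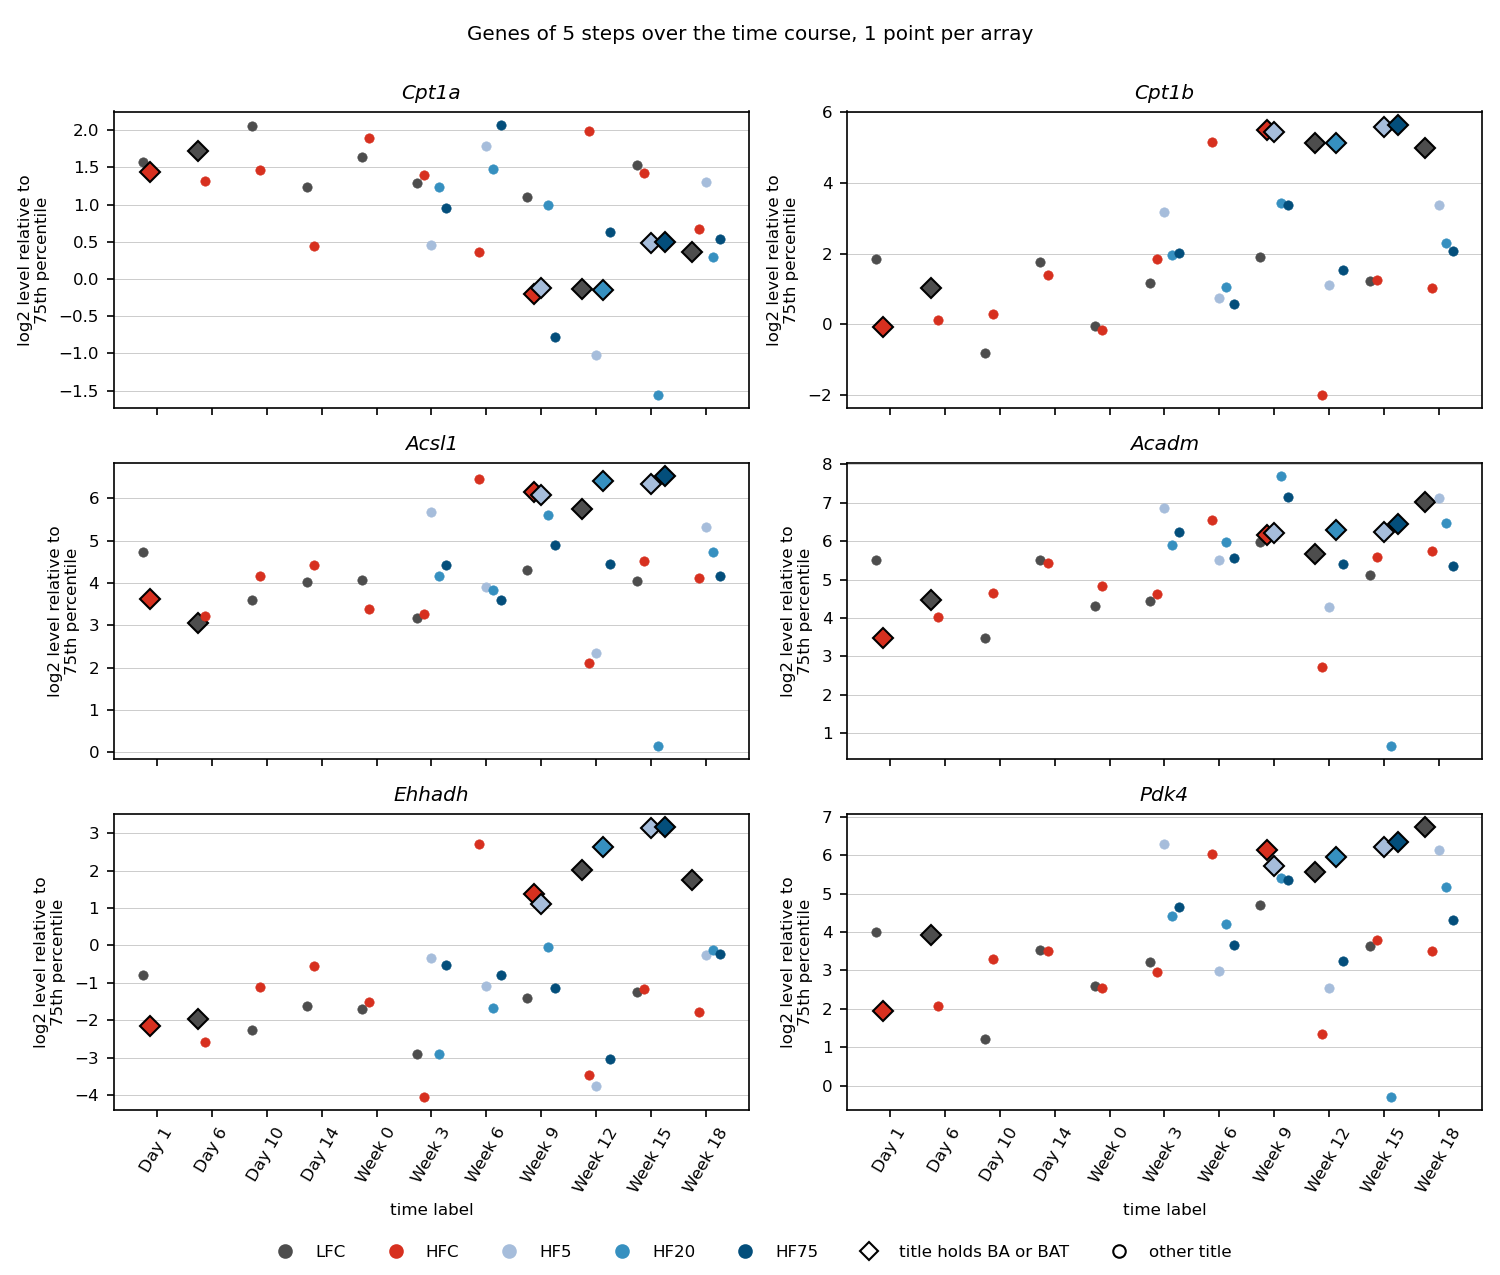
Points give the log2 level relative to the 75th percentile of 6 genes on each array, over the time labels, with diets in colour and titled arrays as diamonds. For Cpt1b, Ehhadh and Acsl1 the titled arrays from Week 9 on and HFC Week 6 lie above the other arrays of their time labels, while for Cpt1a they lie in the lower part of the range.

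The mitochondrial spiral begins with acyl-CoA dehydrogenases that differ in the chain length they accept. Acadvl, for very long chains, ranged from 5.10 to 7.11 (median 5.76, 9 arrays) in LFC and from 3.66 to 6.60 (median 5.79) in HFC. With KAL-1 it ran from 4.46 to 8.11 (median 6.27) in HF5, from 1.85 to 8.20 (median 6.77) in HF20 and from 6.13 to 8.27 (median 6.97) in HF75. The medians of the KAL-1 diets were above those of LFC and HFC, with overlapping ranges. Acadl, for long chains, ranged from -1.58 to 5.65 (median 2.16) in LFC and from -0.13 to 5.81 (median 2.50) in HFC. In HF5 its range was 2.16 to 6.14 (median 4.27), in HF20 -1.12 to 5.11 (median 3.67) and in HF75 2.90 to 6.18 (median 3.50). The lowest array of LFC was Day 1, that of HFC was Week 12, and the highest array of every diet was a titled one. Acadm, for medium chains, ranged from 3.48 to 7.01 (median 5.32) in LFC and from 2.71 to 6.55 (median 4.84) in HFC. It ran from 4.28 to 7.11 (median 6.22) in HF5, from 0.67 to 7.69 (median 6.12) in HF20 and from 5.35 to 7.15 (median 5.89) in HF75. Acads, for short chains, and Acadsb, for short branched chains, both had their highest level on HFC Week 6, at 4.81 and 1.90.

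Hadha and Hadhb carry out the last 3 reactions of each turn for long chains. Hadha ranged from -0.39 to 4.71 (median 1.5) in LFC and from -1.20 to 4.67 (median 0.98) in HFC. Its levels ran from -1.59 to 3.99 (median 2.24) in HF5, from -2.07 to 4.00 (median 2.03) in HF20 and from 0.74 to 3.98 (median 1.91) in HF75. Low and high Hadha arrays occurred in every diet. Hadhb ranged from 2.98 to 7.19 (median 5.14) in LFC and from 2.25 to 6.43 (median 4.83) in HFC. Its range was 3.47 to 7.01 (median 5.98) in HF5, 0.65 to 7.38 (median 6.02) in HF20 and 4.70 to 6.98 (median 5.66) in HF75. The pair, whose start windows were shown above, rose and fell over the same arrays, with r = 0.82 and rho = 0.87 over 39 arrays (permutation p = 1e-05 for both, the smallest that 100000 permutations can give). Without the arrays farthest from the median of Hadha (HFC Week 6 and LFC Week 18) r was 0.81, within the 9 titled arrays 0.95 and within the 30 others 0.83. Hadhb was saturated on 7 of the 9 titled arrays, so that r reads a capped level. This and the pair of Cpt1 isoforms were the only pairs of members so compared.

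For shorter chains Echs1 adds water, Hadh oxidises the product and Acaa2, the mitochondrial thiolase, releases acetyl-CoA, while Decr1 prepares unsaturated chains. Acaa2 ranged from 4.85 to 7.58 (median 6.20) in LFC and from 4.28 to 7.32 (median 6.43) in HFC. It ran from 5.13 to 8.04 (median 6.34) in HF5, from 2.39 to 8.90 (median 7.19) in HF20 and from 6.34 to 8.54 (median 6.74) in HF75. In every diet Acaa2 was highest on an array that was not titled, but its spots were saturated on 7 titled arrays, where the level is a lower limit. Echs1, Hadh and Decr1 spanned 7.24, 7.16 and 6.29 log2 units between their lowest and highest arrays.

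Electron transfer flavoprotein, made of Etfa and Etfb, takes electrons from the dehydrogenases, and Etfdh passes them to ubiquinone. Etfdh ranged from 1.43 to 5.80 (median 3.68) in LFC and from 1.84 to 6.17 (median 4.17) in HFC. Its levels were 3.20 to 6.18 (median 5.59) in HF5, 0.42 to 6.16 (median 4.89) in HF20 and 4.07 to 6.49 (median 4.98) in HF75. Its low ends were LFC Day 10, HFC Week 12, HF5 Week 12 and HF20 Week 15, nearly the same arrays as for the spiral. Etfa and Etfb had standard deviations of 1.33 and 1.12.

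Among the peroxisomal genes Ehhadh encodes the bifunctional enzyme of the middle reactions, and Acaa1a and Acaa1b the closing thiolases. Ehhadh ranged from -2.89 to 2.03 (median -1.51) in LFC and from -4.05 to 2.71 (median -1.5) in HFC. In HF5 it ran from -3.77 to 3.15 (median -0.29), in HF20 from -2.92 to 2.63 (median -0.12, 5 arrays) and in HF75 from -3.04 to 3.16 (median -0.66). The gene was well above background on 34 arrays, and its high arrays were HFC Week 6 and titled ones. Acaa1b ranged from 1.73 to 3.30 (median 2.38) in LFC and from 1.01 to 3.79 (median 2.07) in HFC. It ran from 0.48 to 3.78 (median 3.44) in HF5, from -1.73 to 3.67 (median 2.81) in HF20 and from 1.60 to 3.64 (median 2.41) in HF75. Apart from HF20 Week 15, Acaa1b kept within a narrower range than Ehhadh, with a standard deviation of 0.86 without that array. Acot8, a peroxisomal thioesterase, Crot, which makes carnitine esters of shortened chains, and Acox3, an oxidase of branched chains, had standard deviations of 0.68, 0.78 and 0.98. Acaa1a ran from 1.51 on HF20 Week 15 to 6.18 on HF75 Week 15. Decr2, the peroxisomal counterpart of Decr1, ran from -6.19 on LFC Day 1 to 2.52 on HFC Week 6. Acox2, an oxidase of branched chains and bile acid intermediates, ran from -7.27 on HFC Week 9 to 1.67 on HF75 Week 18.

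Acot1 and Acot2 cut acyl-CoA back to free fatty acids in the cytosol and in mitochondria, and Pdk4 blocks pyruvate dehydrogenase and so turns cells from glucose to fat. Acot1 ranged from -0.74 to 3.21 (median 0.33) in LFC and from -0.40 to 1.80 (median 1.08) in HFC. In HF5 its levels were -1.57 to 2.65 (median 1.82), in HF20 -0.55 to 2.45 (median 2.20) and in HF75 0.41 to 3.00 (median 1.66). Acot1 was higher in the medians of the KAL-1 diets than in HFC and LFC, with overlap of all diets. Acot2 ranged from -3.61 to 1.61 (median -2.76) in LFC and from -3.62 to -0.01 (median -2.40) in HFC. It ran from -2.37 to -0.13 (median -0.55, 5 arrays) in HF5, from -3.58 to 0.10 (median -0.44, 5 arrays) in HF20 and from -2.98 to -0.36 (median -1.95) in HF75. The 2 genes are close in sequence, and how far their probes tell them apart was not tested. Pdk4 ranged from 1.21 to 6.73 (median 3.78) in LFC and from 1.35 to 6.14 (median 3.30) in HFC. Its range was 2.53 to 6.30 (median 5.93) in HF5, -0.30 to 5.95 (median 4.79) in HF20 and 3.24 to 6.34 (median 4.48) in HF75. Pdk4 followed the arrays of the spiral, with its low ends on LFC Day 10, HFC Week 12, HF5 Week 12, HF20 Week 15 and HF75 Week 12.

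The question whether the high fat diet changed these genes was put to HFC against LFC, in a limma fit of diet and time label over all 39 arrays. No member passed an adjusted p of 0.05 (0 of 39, with 0% of 34035 probes called), and 0 members had an unadjusted p under 0.05, against 2.85% of probes. The median log2 difference of the members was -0.13, against 0.04 for all genes, with 14 higher and 25 lower in HFC and a range of -0.61 to 0.81. None passed, and p was smallest for Etfb at -0.61 (SE 0.43, lower at 6 of 10 time labels), Acsl5, a synthetase of the endoplasmic reticulum and mitochondria, at -0.58 (SE 0.46, lower at 8 of 10) and Acadl at 0.81 (SE 0.78, higher at 6 of 10). Etfb had saturated spots on 7 arrays, so its difference and its count of time labels rest partly on capped levels. By step, 3 of 8 genes of activation and uptake were higher in HFC, 3 of 6 of the shuttle, 3 of 11 of the spiral, 2 of 3 of electron transfer and 2 of 8 of the peroxisome. The 95% intervals of the single genes reached from -2.17 to 2.40, and for 4 members the whole interval lay within a 2-fold change, so smaller differences were not detectable for most of them. Without the titled arrays the median was 0.46, with 30 of 39 members higher and 1 at an unadjusted p under 0.05, against 1.85% of probes. Leaving out Week 12 alone turned the median to 0.18, and leaving out Week 18 turned it to 0.03.

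The question whether KAL-1 changed the response to the high fat diet was put to each dose and to the 3 doses together, all against the same HFC arrays. In HF5 the median log2 difference of the members was 0.47 (29 of 39 higher), against -0.03 for all genes, and 0 members passed the adjusted p or an unadjusted p under 0.05, against 0% and 1.5% of probes. The smallest p belonged to Slc27a2 (1.16, SE 0.99, higher at 5 of 6 time labels), Acadvl (0.78, SE 0.67, 3 of 6) and Acadm (0.75, SE 0.68, 5 of 6). In HF20 the median was 0.07 (20 higher) against -0.01, again with 0 members at either threshold, against 0% and 2.95% of probes. Here Acsl6 (1.56, SE 1.07, higher at 4 of 5), Slc27a1, a transport protein of muscle and fat (0.57, SE 0.40, 3 of 5), and Acsl4 (-0.61, SE 0.45, lower at 5 of 6) came first. In HF75 the median was 0.26 (27 higher) against 0.09, with 0 members at either threshold, against 0% and 3.56% of probes, and Acox2 (1.63, SE 0.89, 5 of 6), Acadvl (1.21, SE 0.67, 5 of 6) and Etfb (0.82, SE 0.54, 4 of 6) led. Acadvl, Etfb and Acadm had saturated spots on 7, 7 and 8 of the 39 arrays. Their differences and counts of time labels therefore rest partly on capped levels, HFC arrays included. These 3 comparisons share the HFC arrays.

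With the doses together the median of the members was 0.30 (28 of 39 higher), against 0.02 for all genes, and 0 passed the adjusted p or an unadjusted p under 0.05, against 0% and 2.48% of probes. Acadvl (0.80, SE 0.53), Slc27a1 (0.42, SE 0.32) and Acot1 (0.50, SE 0.39) had the smallest p. Of these Acadvl had saturated spots, on 7 arrays, so its difference rests partly on capped levels. By step, 10 of 11 genes of the spiral, 3 of 3 of electron transfer, 4 of 8 in the peroxisome and 4 of 8 in activation and uptake were higher with KAL-1, and the difference between steps was not tested. Without the titled arrays the median fell to -0.12, with 16 of 39 higher, and the medians of HF5, HF20 and HF75 were -0.03, -0.48 and -0.11. With array weights in limma, which give noisy arrays less influence, the median was 0.89 and 20 members had an unadjusted p under 0.05 (17 in HF5, 14 in HF20 and 9 in HF75), all higher, and 0 members passed the adjusted p. The share of all probes that were higher at this threshold under the weights was 3.58%, and 4.2%, 2.69% and 1.65% for the single doses. A plain t-test, as the methods name it, called 0 members after adjustment, with 4 members higher in HF75 at an unadjusted p under 0.05, against 1.28% of probes.

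Marker lists of other cells moved in the same comparisons. Of 8 brown adipocyte markers 7 were lower in HFC than in LFC (median -0.60) and 7 higher with the doses together than in HFC (median 1.14), while the medians of 9 macrophage markers were 0.10 and 0.01. Of 8 general adipocyte markers 7 were lower in HFC (median -0.44) and 7 higher with the doses together (median 0.17). With the doses together 5 of 5 neutrophil markers (median 1.24) and 4 of 4 erythroid markers (median 0.93) were higher as well, and 5 of 5 endothelial markers lower (median -0.84, 2 at an unadjusted p under 0.05). The part of these lists in the differences of the members was not tested. No marker passed the adjusted p.

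**Figure D3:**
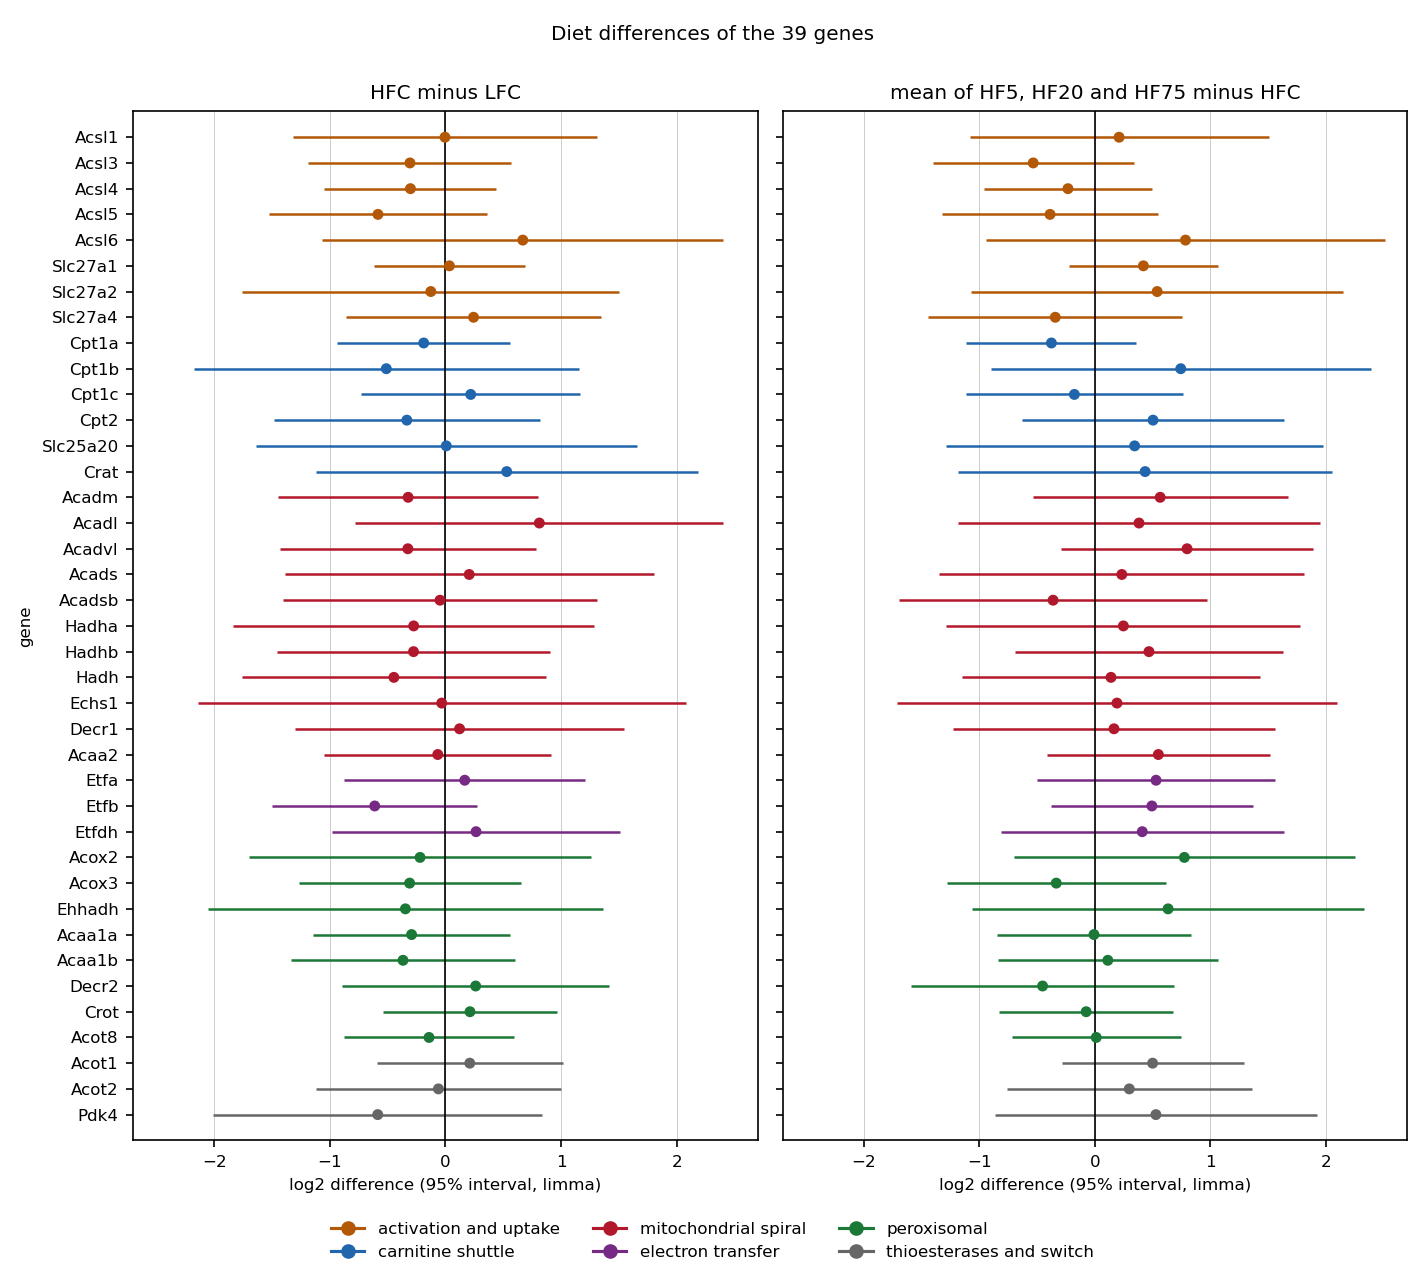
Points give the log2 difference of each of the 39 genes, HFC minus LFC on the left and the mean of HF5, HF20 and HF75 minus HFC on the right, with bars for the 95% interval from limma and colours for the step. Every interval holds 0, and most reach past a 2-fold change on at least 1 side.

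Other genes of the pathway outside the 39 members gave the same count. Of 28 such genes (regulators such as Ppara and Ppargc1a, and further dehydrogenases) 0 passed the adjusted p or an unadjusted p under 0.05 in HFC against LFC and in the dose comparisons. In HFC against LFC 10 were higher, and the smallest p belonged to Ppargc1a, a coactivator of mitochondrial genes (-0.56, SE 0.58), Fabp3, a fatty acid binding protein (0.60, SE 0.68), and Angptl4, an inhibitor of lipoprotein lipase (-0.41, SE 0.47). With the doses together 22 were higher than in HFC, and those with the smallest p included Angptl4 (-0.63, SE 0.47) and Slc22a5, the carnitine transporter of the plasma membrane (-0.53, SE 0.46). By single doses, Angptl4 (-0.65), Plin5 (1.00) and Ucp3 (1.16) came first in HF5, Angptl4 (-0.99), Slc22a5 (-0.67) and Scp2 (0.63) in HF20, and Ppard (0.89) and Acad10 (-1.42) were among the first in HF75.

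At single time labels, where each diet has 1 array and no test is possible, the members moved far and in opposite directions. The median of the members for HFC minus LFC ranged from -3.10 at Week 12 to 1.44 at Week 9, higher at 6 and lower at 4 of 10 labels, with a standard deviation of 1.29 between labels. At Week 12, 31 of 39 members were at least 2-fold lower in HFC, against 20.7% of all genes, and Cpt1b differed most (-7.12). HFC Week 12 also had the lowest mean of the brown adipocyte markers (-5.26) and the highest of the macrophage markers (2.23) of all arrays, and their part in this difference was not tested. At Week 9, 23 members were at least 2-fold higher, against 14.3% of all genes, with Cpt1b again at the end of the range (3.60). On HFC Week 9, however, 12 members were saturated, and on LFC Week 12 13 members, so these counts and medians rest partly on capped levels, and a capped gene can even show the wrong sign. At Week 18, 25 of 37 members were at least 2-fold lower in HFC, against 23.1% of all genes. In each of these 3 labels exactly 1 array of the pair was titled (HFC at Week 9, LFC at Week 12 and Week 18), and the titled array was the higher one. At Day 1 and Day 6 exactly 1 array was titled too (HFC and LFC). There the titled array was the lower one at Day 1 (median -0.61) and the higher one at Day 6 (median -0.44). Neither was titled at Day 10 (median 0.78), Day 14 (0.36), Week 0 (0.20), Week 3 (0.12) and Week 15 (0.11). The sign at Day 14 rests on its labels, since the Day 14 columns of the deposited table matched the scanner files of the opposite diets.

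For the doses the medians by label ran from -2.02 at Week 6 to 1.96 at Week 15 in HF5, from -3.81 at Week 15 to 3.02 at Week 12 in HF20, and from -2.05 at Week 6 to 2.10 at Week 15 in HF75. Each of these highest medians sets a titled dose array against an HFC array that was not titled. On these dose arrays 13, 10 and 11 members were saturated, as were 10 on HFC Week 6, so the medians rest partly on capped levels. HFC Week 12 had 11.1% of its spots marked. At Week 6, where all 3 doses are set against the single HFC array, 27, 26 and 27 members were at least 2-fold lower in HF5, HF20 and HF75, against 16.5%, 17.1% and 18.8% of all genes. The HF20 array of Week 15 gave a value for 22 members only, of which 21 were at least 2-fold lower, against 75.9% of the genes measured there.

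A diet was measured again on the same day solely as Day 14 and Week 0, by the count of days in the methods. Between these arrays the members differed by a median of 0.71 log2 units in LFC and 0.72 in HFC, regardless of sign. The LFC and HFC arrays differed by 0.52 at Day 14 and 0.35 at Week 0. As labelled, the difference between diets was thus smaller than that between arrays of the same diet and day. All genes gave the same order. Their medians were 0.86 in LFC and 1.11 in HFC between these arrays, and 0.64 at Day 14 and 0.31 at Week 0 between diets. This order is therefore not particular to the members. In the deposited table of the series, however, the columns of Day 14 matched the scanner files of the opposite diets. If those files were exchanged, the pairs of Day 14 and Week 0 would join unlike diets, which cannot be settled here.

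The trend over time was tested on the 21 arrays of LFC and HFC, as a slope per doubling of days with weeks counted from Day 14. Of the members 31 had a slope above 0 and 8 below, with a median of 0.13 against -0.05 for all genes, and 0 passed the adjusted p of 0.05, against 0% of probes. At an unadjusted p under 0.05, 9 members rose and 0 fell, against 4.06% and 7.86% of probes (11.9% in either direction). The count of 9 fell to 3 without Week 9 and to 4 without Day 6, Day 10 or Week 18, and rose to 13 without Week 12. Decr2 had the smallest p (slope 0.56, SE 0.13, limma adjusted p = 0.152), followed by Hadh (0.33, SE 0.12, adjusted p = 0.286) and Slc27a2 (0.47, SE 0.17, adjusted p = 0.297). Pdk4, Acadl, Etfa, Echs1, Cpt2 and Acadm made up the rest of the 9, with slopes from 0.21 to 0.39, and Cpt1a had a slope of -0.13. Hadh, Pdk4, Etfa, Echs1, Cpt2 and Acadm had saturated spots on 5 to 8 of the 39 arrays, so their slopes rest partly on capped levels. All 11 genes of the spiral and all 3 of electron transfer had slopes above 0, as did 7 of 8 in the peroxisome and 4 of 8 in activation and uptake. In the same fit 10 of 10 skeletal muscle markers had slopes above 0 (median 0.38, 2 at an unadjusted p under 0.05), and 5 of 5 endothelial markers had slopes below 0 (median -0.28, all 5 at an unadjusted p under 0.05), and their part in the slopes of the members was not tested. Of the 28 other pathway genes 25 had slopes above 0 and 6 an unadjusted p under 0.05, led by Ppargc1a (0.37, SE 0.13), Scp2 (0.23, SE 0.09) and Fabp3 (0.41, SE 0.17).

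These slopes moved with the titled arrays of LFC and HFC (HFC Day 1, LFC Day 6, HFC Week 9, LFC Week 12 and LFC Week 18). Without them the median slope of the members was 0.00, with 20 of 39 above 0, and 2 members, Decr2 (0.59) and Acadl (0.49), had an unadjusted p under 0.05, both rising, against 3.37% of probes. The slopes of both genes also held the LFC Day 1 array, where each was lowest. Without Day 1, and with the other titled arrays kept, the slope was 0.34 for Decr2 (limma unadjusted p = 0.0164). For Acadl it was 0.29 (limma unadjusted p = 0.261).

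**Figure D4:**
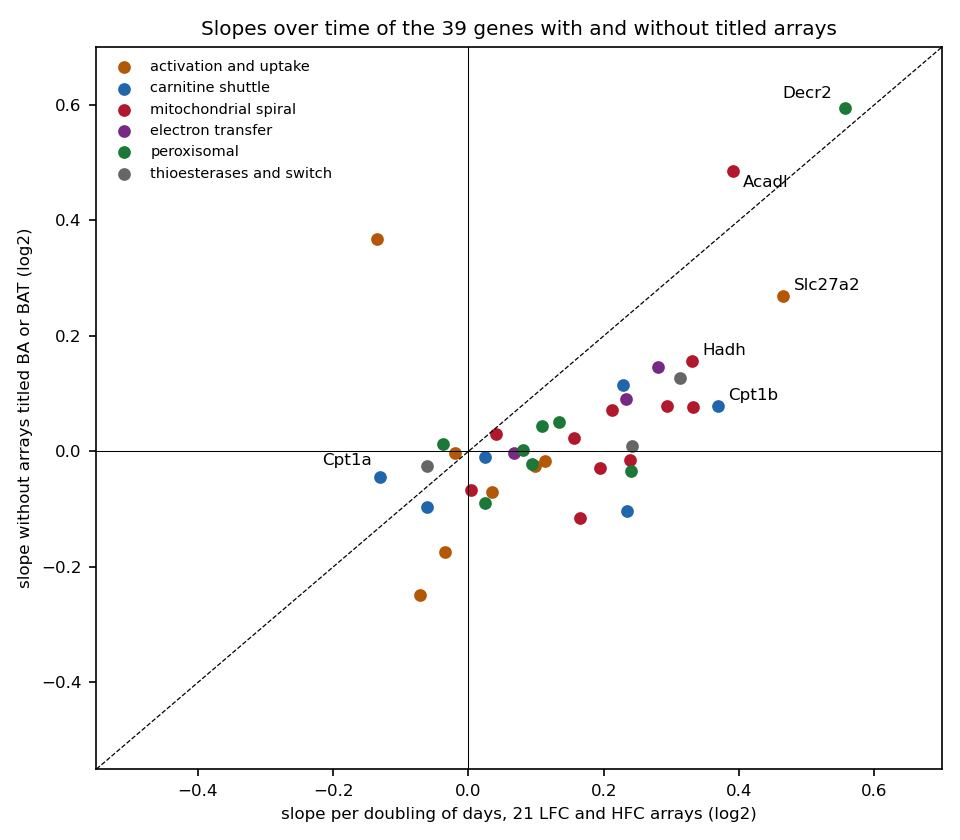
Each point is 1 of the 39 genes, with its slope per doubling of days over the 21 LFC and HFC arrays on the horizontal axis and the slope without the titled arrays on the vertical axis, both in log2 units, and the dashed line marks equal slopes. Most points lie below the line, around 0 on the vertical axis, with Decr2 and Acadl among those above it.

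Whether the difference between HFC and LFC changed over the course was tested as an interaction, Week 3 to Week 18 against Day 1 to Week 0, on 20 arrays. The median of the members was -0.76, against -0.15 for all genes, with 9 above and 30 below 0, and 0 passed the adjusted p, against 0% of probes. Cpt1c (2.49, SE 1.04) had an unadjusted p under 0.05, as did 0.676% of probes in that direction and 2.36% in either, and Acox2 (-2.45, SE 1.22) and Acaa2 (-1.05, SE 0.62) followed. The Cpt1c probe was well above background on 21 arrays, and a dimmer probe of the gene gave 0.32 (SE 1.23). Acaa2 had saturated spots on 8 arrays, so its value rests partly on capped levels. All 11 genes of the spiral lay below 0. Without the titled arrays the median was -0.12, without the Week 12 arrays it was -0.09, and without LFC Day 10 and HFC Week 12, left out after seeing the data, it turned to 0.10 with 23 of 39 above 0. In the same fit all 8 brown adipocyte markers lay below 0 (median -1.64) and all 5 fibroblast markers above 0 (median 0.70), and their part in the result was not tested. Of the other pathway genes those with the smallest p included Angptl4 (-1.38, SE 0.77) and Fabp3 (-2.19, SE 1.37), and none passed the adjusted p.

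Several probes were present for 11 members. Beside the brightest probe, on which all values rest, another probe of the gene had the opposite sign for 4 members in HFC against LFC (Acaa1a, Acsl6, Cpt1a and Decr1), 5 in HF5, 5 in HF20, 7 in HF75, 3 with the doses together, 2 in the trend and 3 in the interaction. Acaa1a was among them in all 7 comparisons.

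The steps were then set beside each other, as the mean over the genes of a step on each array relative to the mean of each gene over the arrays. The mitochondrial spiral ran from -1.79 to 1.5 (median -0.59) in LFC, from -2.52 to 1.96 (median -0.34) in HFC, and in the KAL-1 diets from -1.79 to 1.80 (HF5, median 1.03), -4.20 to 1.83 (HF20, median 0.51) and -0.40 to 1.87 (HF75, median 0.11). The peroxisomal genes ran from -0.81 to 1.51 (median -0.25) in LFC, from -0.74 to 1.02 (median -0.42) in HFC, from -1.82 to 1.48 (median 0.29) in HF5, from -3.85 to 1.03 (median -0.12) in HF20 and from -0.53 to 1.49 (median 0.00) in HF75. Activation and uptake had the narrowest range, from -0.70 to 1.02 in LFC and -0.91 to 0.68 in HFC to -2.28 to 1.41 in HF20. On the same array the peroxisomal level minus that of the spiral went from -1.33 on HF20 Week 9 to 1.79 on HFC Week 12, where the spiral was at its lowest apart from HF20 Week 15. That difference had medians of 0.19 in LFC, 0.12 in HFC, -0.39 in HF5, -0.57 in HF20 and -0.27 in HF75, with overlapping ranges. These values depend on the scaling of the arrays, and no test was made on them. The means also hold dim genes, such as Acsl6 (well above background on 11 arrays) and Acox2 (on 30). HF20 Week 15 was the low end of HF20 in these steps. Only Acaa1a and Acaa1b had values there in the peroxisome, and only Acsl1, Acsl4 and Acsl5 in activation and uptake. Genes of the spiral such as Acadm and Hadhb were saturated on the bright arrays. The steps therefore cannot be ranked by their ranges, and the peroxisomal level minus that of the spiral rests partly on capped levels.

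The titled arrays were set against the others of their time label, a split by title and not by diet. From Week 9 to Week 18, every titled array was higher than every other array of its label for 18 of 39 members, against 10.9% of all genes, and lower for 1 (Acsl6), against 15.1%. The 18 genes were 6 of 8 in the peroxisome (Acox3, Ehhadh, Acaa1a, Decr2, Crot and Acot8), 4 of 8 in activation and uptake (Acsl3, Acsl5, Slc27a2 and Slc27a4), 4 of 11 in the spiral (Acads, Acadsb, Hadha and Decr1), 2 of 6 in the shuttle (Cpt1b and Slc25a20), Etfa and Pdk4. Saturation limits these counts, since 13 members, 6 of them in the spiral (Acadm, Acadvl, Hadhb, Hadh, Echs1 and Acaa2) and 1 in the peroxisome (Acaa1a), had saturated spots on 4 to 7 titled arrays, so the steps cannot be ranked by them. The medians of titled minus other arrays over the members were 0.78 at Week 9, 2.58 at Week 12, 2.58 at Week 15 and 1.25 at Week 18, but -0.61 at Day 1 and 0.44 at Day 6. Capped levels limit the medians from Week 9 on as well. Of the marker lists, 4 of 8 general adipocyte markers, 1 of 8 brown adipocyte markers and 0 of 9 macrophage markers were higher on every titled array in the same sense, and 3 of 5 neutrophil markers were lower. Several adipocyte markers were saturated too, such as Ucp1, Cidea, Cox7a1 and Cox8b on 7 or 8 arrays, which limits their counts. What the titles mark was not tested.

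The labelled cell type was checked by its markers. Of 9 macrophage markers 7 (Adgre1, Cd68, Csf1r, Mrc1, Cd14, Fcgr1 and Mpeg1) were well above background on all 39 arrays, so macrophage RNA was present throughout. Fat cell RNA was present as well, although fat cells are not part of a stromal vascular fraction. Ucp1, which defines brown fat cells, was well above background on all 39 arrays, from -3.18 on HFC Week 12 to 8.82 on HF20 Week 9 (median 6.23), and Adipoq, the adiponectin gene of fat cells, from 1.12 on HF20 Week 15 to 7.04 on LFC Week 18 (median 3.85). The other general markers of fat cells were well above background on all arrays but for Lep, which was so on 18. By diet the mean of the 8 general adipocyte markers, relative to each gene's mean, ranged from -0.84 to 2.14 in LFC, -1.84 to 1.53 in HFC, -1.40 to 1.41 in HF5, -3.39 to 1.67 in HF20 and -1.57 to 1.38 in HF75. The mean of the 9 macrophage markers ranged from -1.44 to 1.06, -1.65 to 2.23, -1.12 to 1.92, -1.73 to 0.72 and -1.54 to 0.88 in the same order.

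The level of each member was related to the mean of 4 marker lists over the arrays, 156 relations in all, with permutation p-values adjusted by Benjamini-Hochberg over these. With general adipocyte markers the median r of the 39 members was 0.76, and 30 members passed an adjusted p of 0.05 for r, all positive, 29 of them for rho as well. The median r was 0.73 without the 2 arrays farthest from the median of the list, 0.78 within the titled arrays and 0.70 within the others. With brown adipocyte markers the median r was 0.60 (26 positive and 1 negative, Cpt1c), with skeletal muscle markers 0.35 (18 positive), and with macrophage markers -0.08 (4 positive and 7 negative). The median r with macrophage markers was 0.04 within the titled arrays and 0.23 within the others. Its sign over all arrays was thus not that within either set. Several markers were saturated too (Fabp4 on 29 arrays, Adipoq, Plin1, Cfd and Pnpla2 on 6 or 7, and Ucp1, Cidea, Cox7a1 and Cox8b on 7 or 8), so the high ends of these lists are capped on many of the arrays where members are. How genes outside the pathway relate to these lists was not examined.

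These relations are also given by step, and the difference between steps was not tested. No share over all genes stands beside the counts. Capped genes of the spiral and dim genes such as Acsl6 enter the medians, so the steps cannot be ranked by them. With general adipocyte markers the median r was 0.79 for the spiral (11 of 11 positive past the adjusted p), 0.82 for electron transfer (3 of 3), 0.68 for the shuttle (4 of 6), 0.64 for the peroxisome (7 of 8) and 0.31 for activation and uptake (3 of 8). With brown adipocyte markers it was 0.73 for the spiral (11 of 11), 0.37 for the peroxisome (4 of 8) and 0.21 for activation and uptake (2 of 8). Acsl1 had the highest r with the general adipocyte markers (r = 0.92, rho = 0.86, permutation p = 1e-05 for both, and r = 0.88 without HF20 Week 12 and HF20 Week 15), and Echs1 (r = 0.90, rho = 0.88, permutation p = 1e-05, and r = 0.89 without HF20 Week 15 and LFC Week 18) came next. Acsl1 and Echs1 were saturated on 7 and 5 arrays, and several of these markers were saturated too. At the high end both sides of r are thus capped, and this order cannot rank the genes. Cpt1a did not rise with them (r = -0.21, permutation p = 0.201, and rho = -0.55, which passed the adjusted p), with r = -0.73 within the titled arrays and 0.05 within the others. With macrophage markers it gave r = 0.44 (permutation adjusted p = 0.0113) and rho = 0.35, which did not pass. Acsl5 ran opposite to the macrophage markers (r = -0.61, rho = -0.54, both past the adjusted p), with r = -0.42 within the titled arrays and -0.30 within the others. The part of fat cell RNA in the differences between diets, labels and titles was not tested.

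**Figure D5:**
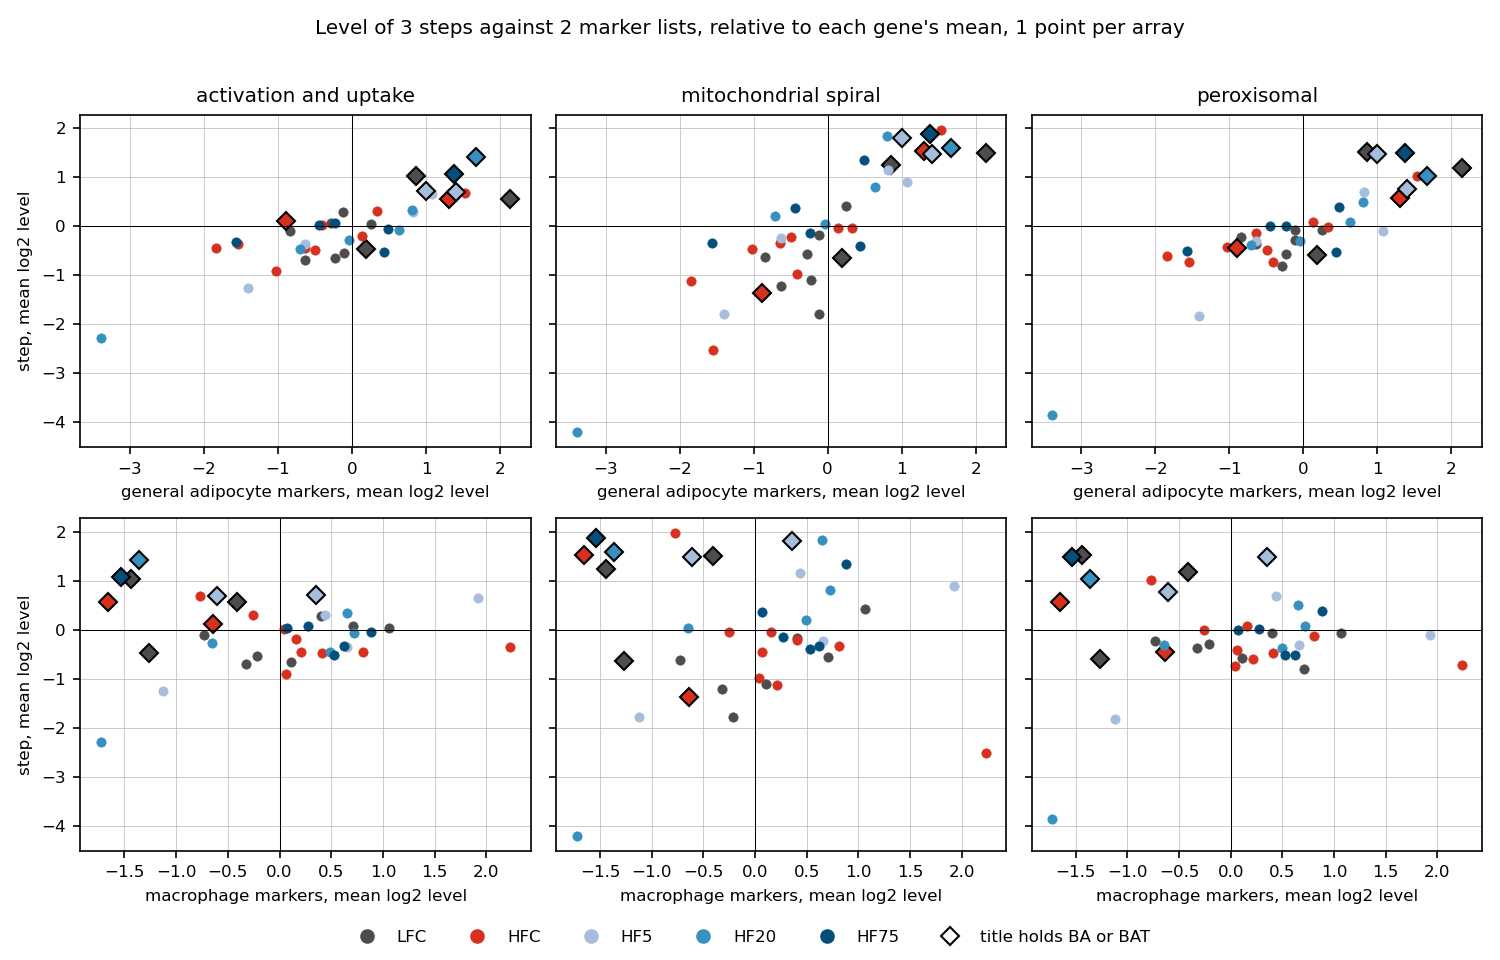
Points are arrays, with the mean log2 level of a step (activation and uptake, mitochondrial spiral, peroxisomal) on the vertical axis and that of general adipocyte markers (top) or macrophage markers (bottom) on the horizontal axis, each relative to the mean of every gene, in log2 units. The spiral and the peroxisomal genes rise with the general adipocyte markers, with HF20 Week 15 at the lower left, and show no such rise with the macrophage markers.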

How the data were processed

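RNA was hybridised to Agilent 1-colour arrays, 1 array per diet and time label. The deposited scanner files, made by the authors with Feature Extraction 10.5.1.1 per the file headers (the labels give 9.1), hold a background-subtracted intensity for each of 43803 spots. A deposited table of the series, made by the authors, holds log2 values relative to an array of the same time label. That was the LFC array but for Week 6, whose reference was not analysed here. The table gave the gene symbols and served as an alternative. Its 2 columns of Day 14 matched the scanner files of the opposite diets, and its HFC Week 12 column did not match the scanner file of that array.

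The log2 intensity minus the 75th percentile of the array was used here. Spots marked as outliers were dropped, spots of a probe averaged, and 34035 of 40628 probes kept that were well above background on at least 6 arrays. Each gene was read from its brightest probe. Arrays have no read depth, so the number of arrays limits the precision. Diets were compared in 1 limma fit with diet and time label as terms over 39 arrays, the trend in LFC and HFC with diet and log2 of the day (a slope per doubling), and the late against the early diet effect as an interaction. Time labels paired the diets by design, and p-values were adjusted by Benjamini-Hochberg over all probes kept. The fit was tested on simulated data with 200 changed probes of 34035, and for HFC against LFC it recovered 0% of 2-fold, 55% of 4-fold and 97.5% of 16-fold changes.

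In each comparison the 3 members with the smallest p were named where fewer passed, likewise for 28 other pathway genes, of which some are not reported here. Values by diet were given for 17 genes chosen by role. Other genes named were chosen after their values were seen. The members, lists and tests were chosen with earlier results of these data known. Alternatives covered background correction, normalization, the filter, marked spots, array weights, blocks, probes and arrays left out. Software was R 4.3.3, limma 3.58.1, statmod 1.5.0, Python 3.11.15, numpy 2.4.6, pandas 2.3.3, scipy 1.17.1 and matplotlib 3.10.9.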

Additional observations from a re-analysis of the deposited data

Results flagged for a closer look

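Of 92 groups of arrays examined for a value far from the rest, 14 had one, where chance gives about 1 in 20. In 13 of them the array was HF20 Week 15, which lay far below the other 5 HF20 arrays and had 71.4% of its spots marked. On it Cpt2 stood at 0.74 (the nearest HF20 array at 4.86), Acadm at 0.67 (5.91), Acadl at -1.12 (2.79), Acadvl at 1.85 (6.33) and Hadhb at 0.65 (5.57). Etfdh stood at 0.42 (nearest 4.59), Acaa1b at -1.73 (2.04) and Pdk4 at -0.30 (4.19). The mean levels of the steps were low on the same array as well, with -3.27 for the carnitine shuttle, -4.20 for the mitochondrial spiral, -4.0 for electron transfer, -3.85 for the peroxisomal genes and -3.02 for the thioesterases with Pdk4. These means hold only the genes with a value left there. They were Cpt1a, Cpt2 and Crat in the shuttle, Etfb and Etfdh in electron transfer and Acaa1a and Acaa1b in the peroxisome. In the last step they were Acot1 and Pdk4, and the spiral lacked Acads alone. In the other group HF75 Week 15, a titled array, had a level of activation and uptake of 1.07, above the other 5 HF75 arrays, of which the nearest stood at 0.07.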

How the results depend on the processing

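In 7 comparisons no member passed an adjusted p of 0.05 under any alternative run. Single genes turned in 2 cases, with Etfb in HFC against LFC at 0.058 without the titled arrays and Acsl4 in HF20 against HFC at 0.052 without the 3 arrays with over 10% of spots marked, the latter chosen after seeing the data. The median slope of the members over time moved from 0.13 to 0.0020 without the titled arrays. The span of the step levels between the highest and the lowest array moved with the scaling. By quantile normalization it was 7.81 for the spiral, 6.4 for the peroxisomal genes and 4.87 for activation and uptake, against 6.16, 5.37 and 3.70. By normexp it was 2.44 for the peroxisomal level minus that of the spiral (3.12 as reported) and 2.66 for activation and uptake. With marked spots kept these spans were 3.80 and 2.32, and 2.94 for the peroxisomal genes. HF20 Week 15 was the lowest array of the spiral, the peroxisomal genes and activation and uptake. With marked spots dropped, it held no value for 17 members. The cause was not tested. Leaving out each time label in turn, the median of the members ran from -0.27 to 0.18 in HFC against LFC, from 0.07 to 0.90 in HF5, from -0.50 to 0.44 in HF20 (lowest without Week 12, highest without Week 15), from -0.22 (without Week 15) to 0.77 (without Week 6) in HF75, from 0.06 (without Week 15) to 0.63 (without Week 6) with the doses together, from 0.10 to 0.21 in the trend and from -0.90 to -0.09 in the interaction. Without the paired time labels as a block the medians were -0.13 in HFC against LFC, 0.72 in HF5, 0.44 in HF20, 0.68 in HF75 and 0.58 with the doses together, again with 0 members called. With array weights limma called 172 probes in the trend, none of them a member. By normexp the median with the doses together was -0.03, and without the HF20 Week 12 array it was -0.01.

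No diet was repeated at a time label. Saturated spots limit the high end and dim probes the low end, so spans are lower limits for 13 members. In simulated data for HFC against LFC the fit recovered 0% of 2-fold changes, so smaller differences of single members were not detectable.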
